A study of Mus musculus with 17 samples.

Results

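Gene expression was compared between the 5 ovary samples labelled Fshr-CAM/Lhr-/- 1 to 5, called double-mutant here, and the 4 labelled WT/WT 1 to 4, the wild type. These 9 arrays were chosen by their labels alone, from 17 in the series. Both groups were ovaries of 12-week-old female mice of an FVB/N x C57/BL6 cross, and all were untreated as far as the labels say. The double mutants carry the Fshr allele named Fshr-CAM and also lack Lhr. CAM is read here as constitutively active mutant, from general knowledge of such receptors. The sources used here give neither the substitution nor the promoter behind the allele, nor the number of founder lines. Values of the other genotypes, Fshr-CAM with Lhr present (4 arrays) and Lhr-null with the ordinary Fshr (3 of 4 arrays), are set beside these where they help. The questions were which functions of the wild type ovary the active FSH receptor does not replace when Lhr is absent, and which genes go beyond the wild type level.

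Fshr and Lhr are the receptors of the pituitary hormones FSH and LH, and both raise cyclic AMP inside the cell. FSH acts on the granulosa cells of growing follicles and drives inhibin, activin and estradiol production. LH acts on theca cells, on mature granulosa cells and on the corpus luteum, the progesterone-secreting body that forms from the follicle after ovulation. Steroid-producing cells take up or make cholesterol and convert it to progesterone and androgens in mitochondria and the endoplasmic reticulum.

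Total RNA was measured on Illumina MouseWG-6 arrays, and each value is a background-corrected, quantile-normalised log2 signal from 1 probe per gene. On the 9 arrays, 20301 to 21407 of 45281 probes were detected at p under 0.05, the median signal was 56.73 to 65.75 before correction, and precision is limited by how few arrays there are. Whether every sample is a separate animal is not stated in the labels. The p-values therefore cover the spread among these samples only, which may be technical. In RNA from whole ovaries, fewer cells of a type and less RNA per cell cannot be told apart. Most oocyte markers were detected on each array (19 to 22 of 23 in wild type, 20 to 22 of 23 in the double mutants). No probe carries the symbol Lhcgr, so loss of the Lhr transcript was not checked. One Lhr-null array, replicate 1, was left out of the scale because pituitary hormone genes stood out on it in earlier work with these data.

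Fshr itself, the gene that the allele concerns, stood at 8.66, 8.35, 9.16 and 8.98 on wild type arrays 1 to 4 and at 11.46, 11.46, 11.72, 9.73 and 11.41 on double-mutant arrays 1 to 5. Arrays 1, 2, 3 and 5 lie together, and the array labelled Fshr-CAM/Lhr-/- 4 lies below them, though above the wild type. Lhr-null arrays 2 to 4 had 9.14, 9.74 and 9.92, and Fshr-CAM arrays 1 to 4 had 11.59, 11.48, 11.88 and 11.12, so that the array labelled Fshr-CAM/Lhr-/- 4 sits inside the Lhr-null range for this gene and against its label. It is called by its label throughout, and the counts over all genes and the calls of named genes that change are also given without it. The rise of Fshr was 5.18-fold (log2 difference 2.37 ± 0.36 SE, adjusted p = 0.00306) with all 5 arrays, and 2.73, adjusted p = 2.6e-05 without that array. That array was set apart for its low Fshr, so the p of Fshr without it is only a description. The array platform carries 2 further Fshr probes that passed the filter, with smaller differences of 1.68 (adjusted p = 0.0223) and 0.52 (adjusted p = 0.152) in a fit over single probes, which also gives the p of every further probe named here. Over all measured genes, which are not independent replicates, the array labelled Fshr-CAM/Lhr-/- 4 correlated with the other double mutants at r of 0.962 to 0.975, within the 0.957 to 0.987 seen among those 4.

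Of 11473 genes measured, 625 were higher in the double mutant and 677 lower (limma, Benjamini-Hochberg adjusted p under 0.05), which is 5.45% and 5.9% of them and 11.3% together. The falls were larger than the rises. Among the lower genes 273 fell more than 2-fold and 93 more than 4-fold, against 76 and 11 of the genes that rose. For 37 of the genes that fell, the probe was not above background on any double-mutant array, and for 11 that rose it was not above background on any wild type array. Since a probe had to be detected on at least 4 of the 9 arrays, these genes entered the test only through the group in which they were high, so that both numbers are partly set by the filter. In 1142 of the 1302 genes called (87.7%), no array of one group overlapped the other. The call and the lack of overlap come from the same values, and the share over all genes was not counted. This number therefore only describes the calls. Without the array labelled Fshr-CAM/Lhr-/- 4, 609 were higher (5.35%) and 617 lower (5.42%) of 11380 genes, 10.8% together, and 1039 genes were called in the same direction both ways. The number of higher genes depended on single arrays: it was 267 without wild type 2, 336 without wild type 4, and 354, 307 and 361 without double mutants 1, 2 and 3. The number of lower genes was 396 without wild type 2. The split also depended on the scale. With median-centred signals and no background correction, 137 were higher and 983 lower, so that 12.2% of calls were higher instead of 48%, and the median over all genes moved by -0.13 from 0.05 on the log2 scale.

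**Figure D1:**
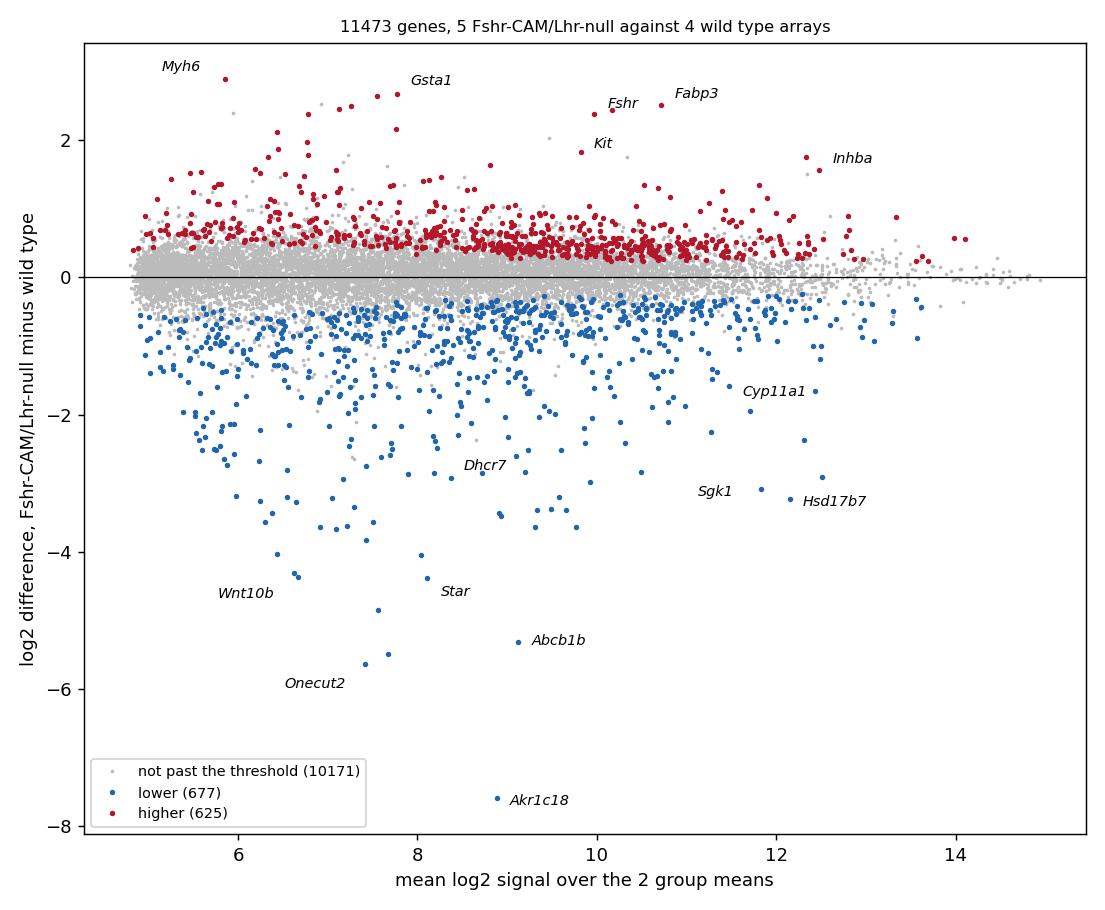
The log2 difference between the double mutant and the wild type (vertical) is plotted against the mean log2 signal (horizontal) for each of 11473 genes, with 625 higher genes in red, 677 lower in blue and the rest in grey. The blue points reach down to -7.59 at Akr1c18, while the red points reach up to 2.88 at Myh6.

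Of 6 measured members of the progesterone synthesis list of 9, 3 fell and 0 rose, beside 5.9% of all genes lower, with a median difference of -0.98 beside 0.05 over all genes. Star, which carries cholesterol to the inner mitochondrial membrane and sets the pace of steroid synthesis, stood at 10.18, 11.01, 10.29 and 9.75 on wild type arrays 1 to 4 and at 6.37, 6.39, 6.01, 4.76 and 6.06 on double-mutant arrays 1 to 5. The groups are far apart, and the array labelled Fshr-CAM/Lhr-/- 4 was the lowest. Star fell 21.0-fold (log2 difference -4.39 ± 0.35 SE, adjusted p = 5.14e-05). Cyp11a1, the enzyme that cuts the cholesterol side chain to give pregnenolone, stood at 12.08, 12.58, 12.09 and 12.30 in the wild type and at 10.97, 11.24, 10.82, 9.60 and 10.77 in the double mutants, again with no overlap. Its fall was smaller, 3.00-fold (log2 difference -1.58 ± 0.28 SE, adjusted p = 0.00688), and smaller still without the array labelled Fshr-CAM/Lhr-/- 4 (-1.31, adjusted p = 0.000633). Tspo, a cholesterol-binding protein of the outer mitochondrial membrane, fell 2.09-fold (log2 difference -1.06 ± 0.23 SE, adjusted p = 0.0174), a call that was lost without wild type 2.

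The other 3 measured members of this list did not pass the test. Fdx1, Fdxr and Por, also on the list, were not measured, so nothing is said of them. Hsd3b1, which turns pregnenolone into progesterone, stood at 9.55, 9.81, 9.66 and 10.87 in the wild type and at 9.17, 8.81, 8.55, 8.94 and 9.87 in the double mutants, and the groups overlap (log2 difference -0.90 ± 0.31 SE, adjusted p = 0.086). Stard3, a relative of Star on late endosomes, differed by 0.02 (adjusted p = 0.937). Nr5a1, the nuclear receptor SF-1 that controls steroid-producing enzymes, stood at 6.85, 7.08, 7.05 and 6.92 in the wild type and 7.59, 7.54, 7.54, 6.64 and 7.67 in the double mutants. All double-mutant arrays except the one labelled Fshr-CAM/Lhr-/- 4 lie above the wild type, and the difference of 0.42 (adjusted p = 0.214) became 0.61, adjusted p = 0.0118 without that array.

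Of 11 measured members of the corpus luteum list of 12, 9 fell and 0 rose, beside 5.9% of all genes lower, with a median of -2.17, and the same counts held without the array labelled Fshr-CAM/Lhr-/- 4 (median -2.09). Among the 9, Ptgfr, Sfrp4 and Pcsk5 entered the test through the wild type alone, and with these 3 at their bounds the median was -2.10. Akr1c18, the enzyme that inactivates progesterone at the end of luteal life in rodents, had the largest fitted fall. It stood at 9.81, 14.34, 12.18 and 14.38 on wild type arrays 1 to 4 and at 5.03, 4.76, 4.79, 6.32 and 4.54 on double-mutant arrays 1 to 5. The wild type arrays differ widely among themselves, yet the lowest of them is still far above the highest double mutant, which is the array labelled Fshr-CAM/Lhr-/- 4. The fall was 193-fold (log2 difference -7.59 ± 0.84 SE, adjusted p = 0.000452), against a group in which 2 of 5 arrays were above background, so that its size is uncertain. Genes with no double-mutant array above background have only a bound and no place in this order.

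The region upstream of Akr1c18 is shown because this gene had the largest fitted fall. The run below holds the 250 bases before its start site (chr13:4150647-4150896 of GRCm38.p6, minus strand, RefSeq), in which none of 3 motifs searched on both strands was found, and it therefore carries no capitals.
Akr1c18: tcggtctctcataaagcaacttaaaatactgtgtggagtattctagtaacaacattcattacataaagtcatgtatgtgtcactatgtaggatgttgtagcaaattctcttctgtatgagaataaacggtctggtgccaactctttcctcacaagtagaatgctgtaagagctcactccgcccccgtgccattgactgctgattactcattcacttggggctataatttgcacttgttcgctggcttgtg
The motifs were CAAGGTCA, bound by NR5A receptors, TGACGTCA, the cyclic AMP response element, and TCACCCCAC, a sterol element. The first and second share the letters TGAC on one strand, and no run of bases can match both. Of 32851 such windows in the table, 1.33%, 1.55% and 0.496% hold them. None of the 7 luteal genes that fell and have an entry in the table holds one, which says only that these letters are not in these windows.

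Ptgfr, the receptor through which prostaglandin F2 alpha ends luteal function, stood at 7.13, 9.16, 7.87 and 8.17 in the wild type and was not above background on any double-mutant array, at 4.75, 4.48, 4.53, 4.36 and 4.43. In such a case the fold is a lower bound, taken against the dimmest probes still above background, and Ptgfr fell at least 8.55-fold (adjusted p = 0.000135). A gene of this kind entered the test only through the group in which it was high, so its p is given as a description. Hsd17b7, which makes estradiol in the corpus luteum and also serves in cholesterol synthesis, stood at 14.34, 13.84, 14.54 and 12.34 and at 10.89, 10.37, 10.38, 10.58 and 10.46. It fell 9.37-fold (log2 difference -3.23 ± 0.37 SE, adjusted p = 0.000572) and remained well detected. Scarb1, the receptor that takes up cholesteryl ester from HDL, stood at 9.55, 9.77, 9.86 and 8.38 in the wild type and at 7.44, 7.37, 7.10, 5.92 and 7.22 in the double mutants. All double mutants lie below all wild type arrays, and the array labelled Fshr-CAM/Lhr-/- 4 lies below its own group (5.20-fold lower; log2 difference -2.38 ± 0.37 SE, adjusted p = 0.00317). A second Scarb1 probe gave a smaller difference of -1.12.

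Sfrp4, a secreted Wnt antagonist, was not above background on any double-mutant array and fell at least 11.0-fold, though its wild type values spread from 6.27 to 10.58. Timp1, an inhibitor of matrix metalloproteinases, stood at 11.36, 12.34, 10.78 and 12.90 against 10.00, 9.71, 9.88, 9.68 and 9.44 (4.30-fold lower; log2 difference -2.10 ± 0.36 SE, adjusted p = 0.00543). Wnt4, a signal of ovarian somatic cells, fell by 1.45 and Parm1, an androgen-regulated membrane protein, by 0.94 on the log2 scale. Pcsk5, a proprotein convertase, fell at least 3.78-fold at its brightest probe, while its other 2 probes gave -0.25 and -0.53 and did not pass. The members that did not pass were Cdkn1b, a cell cycle inhibitor of luteinised cells, at -0.51 (adjusted p = 0.184) and Hif1a, the hypoxia factor, at 0.19 (adjusted p = 0.404).

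**Figure D2:**
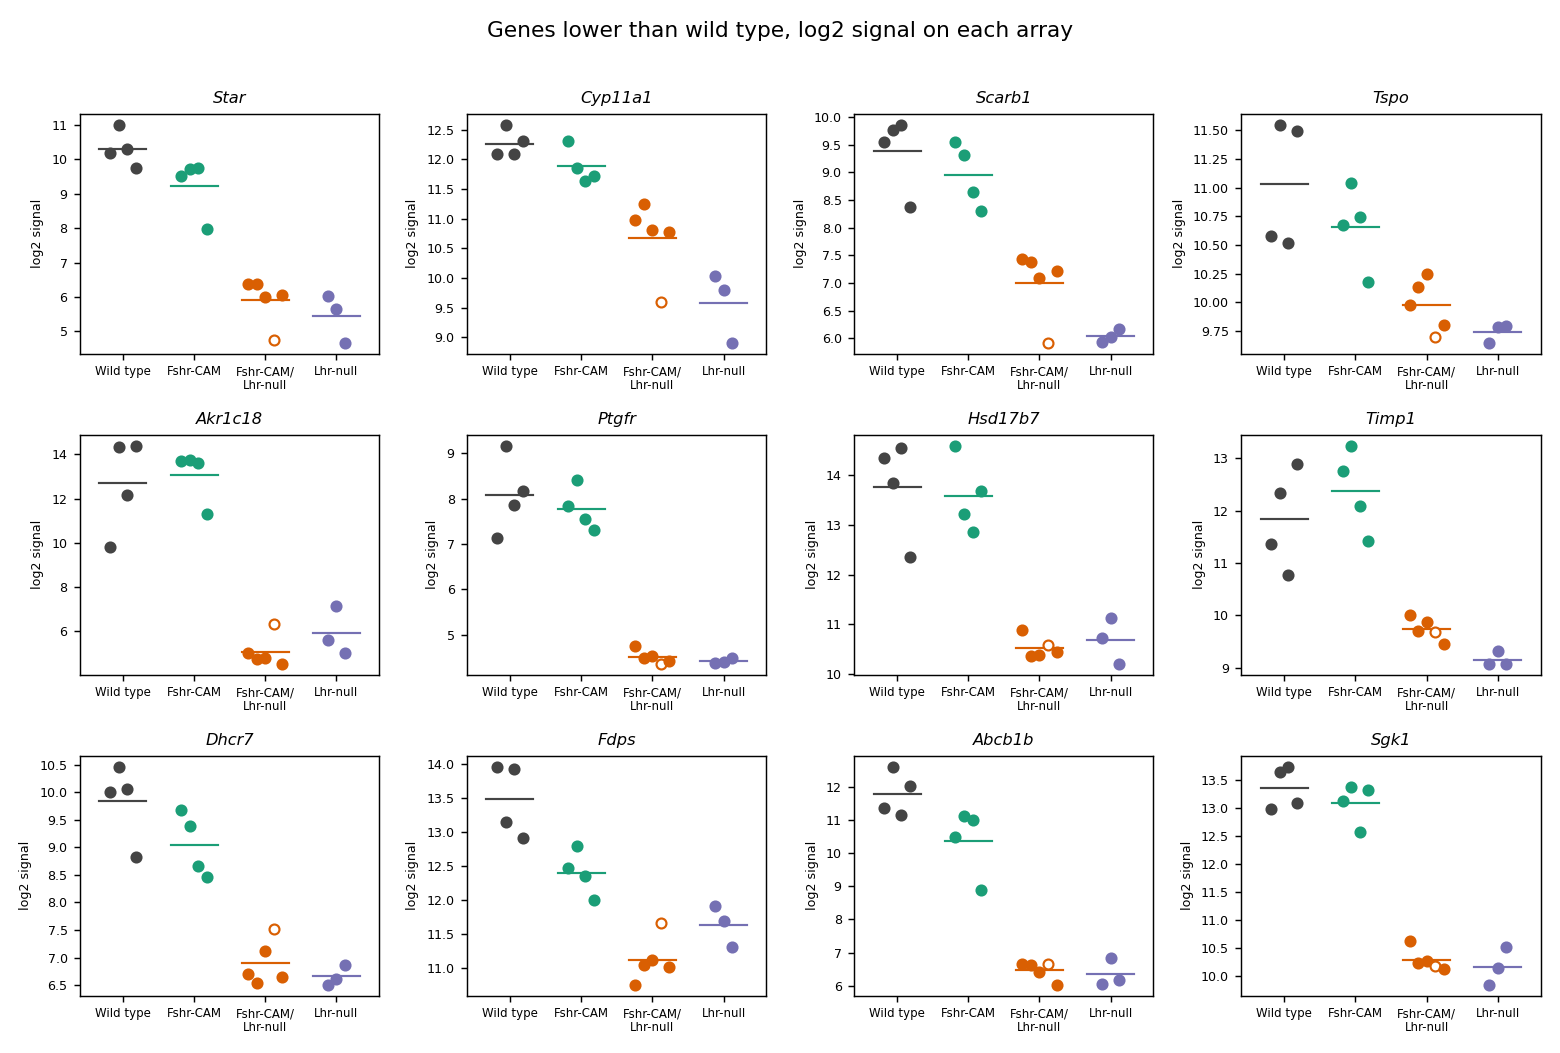
Log2 signals of 12 genes are plotted for each array of 4 genotypes, with a bar at each group mean and an open circle for the array labelled Fshr-CAM/Lhr-/- 4. Star lies at 9.75 to 11.01 in the wild type and at 4.76 to 6.39 in the double mutants, and Cyp11a1 lies at 8.90 to 10.03 on the Lhr-null arrays, at 9.60 to 11.24 in the double mutants and at 12.08 to 12.58 in the wild type.

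Of 16 measured members of the cholesterol synthesis list of 20, 12 fell and 0 rose, beside 5.9% of all genes lower, with a median of -1.31, and the counts were the same without the array labelled Fshr-CAM/Lhr-/- 4. The genes that fell lie in the mevalonate, squalene and sterol-modifying parts of the route. In the mevalonate part, Pmvk fell by 1.03, Mvd by 2.32, Idi1 by 1.28 and Fdps, which builds farnesyl pyrophosphate, by 2.37 on the log2 scale. At the squalene steps, Sqle fell by 1.46 and Lss, which closes the sterol ring, by 2.12. Among the later, sterol-modifying steps, Cyp51 fell by 2.04, Tm7sf2 by 1.74, Msmo1 by 1.04, Nsdhl by 1.34, Ebp by 1.23 and Dhcr7, the last enzyme of one branch, by 2.93. Adjusted p for these 12 lay between 0.000287 and 0.0304.

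Dhcr7 stood at 10.00, 10.46, 10.05 and 8.82 on wild type arrays 1 to 4 and at 6.71, 6.55, 7.12, 7.51 and 6.65 on double-mutant arrays 1 to 5. The groups do not overlap, and wild type 4 and the array labelled Fshr-CAM/Lhr-/- 4 are the closest pair (7.62-fold lower; log2 difference -2.93 ± 0.31 SE, adjusted p = 0.000394). Fdps stood at 13.96, 13.15, 13.94 and 12.92 and at 10.76, 11.05, 11.13, 11.67 and 11.02, also without overlap (5.16-fold lower; log2 difference -2.37 ± 0.24 SE, adjusted p = 0.000287). Mvd stood at 9.94, 9.47, 10.43 and 7.47 and at 6.93, 7.02, 7.07, 7.33 and 6.70, where wild type 4 lies only just above the double mutants (log2 difference -2.32 ± 0.48 SE, adjusted p = 0.0148).

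The members that did not pass were Sc5d at -1.11 (adjusted p = 0.0538), Insig1, a brake on the pathway, at -0.66 (adjusted p = 0.26), Srebf2, the transcription factor that drives these enzymes, at -0.44 (adjusted p = 0.0864), and Mvk at -0.27 (adjusted p = 0.219). Proteins that take up, move or store cholesterol showed less movement, with a median of -0.26. Of 10 such genes 1 rose and 2 fell, beside 5.45% of all genes higher and 5.9% lower. Npc2, which releases cholesterol from lysosomes, fell 2.24-fold (log2 difference -1.16 ± 0.24 SE, adjusted p = 0.014) and Stard4, a cytosolic sterol carrier, 2.16-fold (log2 difference -1.11 ± 0.22 SE, adjusted p = 0.0115). Apoe, the lipoprotein ligand, rose 1.42-fold (log2 difference 0.51 ± 0.13 SE, adjusted p = 0.0337).

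The upstream region of Dhcr7 is shown because it is the cholesterol gene that fell the most and the only one of the group with a match. Of the 12 genes that fell, 10 have a promoter in the table, with 13 start sites in all, and 1 of these windows holds CAAGGTCA while 0 hold either other motif. The run below holds the 250 bases before the first Dhcr7 start site (chr7:143822917-143823166 of GRCm38.p6, plus strand, RefSeq), and the capitals mark that match, which begins 52 bases before the start.
Dhcr7: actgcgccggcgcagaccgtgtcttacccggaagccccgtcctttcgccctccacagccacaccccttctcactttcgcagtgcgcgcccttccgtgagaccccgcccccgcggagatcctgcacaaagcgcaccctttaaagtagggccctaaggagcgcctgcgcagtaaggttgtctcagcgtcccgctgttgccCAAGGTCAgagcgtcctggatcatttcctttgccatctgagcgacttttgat
A match of letters is a description of the window and not a binding site.

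Among the other large falls were genes with roles in transport, signalling and cell growth. Abcb1b, a drug and lipid efflux pump of the P-glycoprotein family, stood at 11.35, 12.60, 11.14 and 12.03 in the wild type and at 6.65, 6.61, 6.40, 6.64 and 6.03 in the double mutants. The double mutants lie close together and far below (39.7-fold lower; log2 difference -5.31 ± 0.27 SE, adjusted p = 3.11e-06). Onecut2, a transcription factor, was not above background on any double-mutant array and fell at least 38.1-fold from wild type values of 7.64, 12.21, 9.38 and 11.72 (adjusted p = 0.00162). Wnt10b, a Wnt ligand, stood at 8.36, 9.29, 8.33 and 9.43 in the wild type and was likewise not above background in any double mutant, a fall of at least 14.6-fold (adjusted p = 3.11e-06). Pik3c2g, a lipid kinase, fell at least 13.9-fold by the same measure at its brightest probe, while its other 2 probes gave smaller log2 differences of -3.00 (adjusted p = 0.0223) and -1.85 (adjusted p = 0.00815).

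Cdkn2b, the cell cycle inhibitor p15, stood at 8.38, 10.88, 9.35 and 11.67 and at 5.99, 5.96, 5.72, 6.18 and 6.25 (16.5-fold lower; log2 difference -4.05 ± 0.55 SE, adjusted p = 0.00149). Cemip, a protein that breaks down hyaluronan, stood at 10.58, 11.00, 11.16 and 11.78 and at 8.13, 7.22, 7.30, 8.07 and 6.71 (12.5-fold lower; log2 difference -3.64 ± 0.32 SE, adjusted p = 9.06e-05). In both genes the groups do not overlap, as the choice of the largest falls required. Ssu2, Tlcd4 and Plekhg4 complete the 12 largest fitted falls, at -4.84, -3.83 and -3.66. Plin4, a coat protein of lipid droplets that the adipocyte list also holds, fell 10.4-fold (log2 difference -3.38 ± 0.46 SE, adjusted p = 0.00149), while the adipocyte genes Adipoq, Plin1 and Lep differed by 0.21 to 0.31 and did not pass and Lpl rose 1.46-fold.

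For cyclic AMP, the messenger shared by both receptors, 3 of 18 measured list members fell and 0 rose, beside 5.9% of all genes lower, with a median of -0.07. Sgk1, a kinase that gonadotropins induce, stood at 12.99, 13.65, 13.74 and 13.10 in the wild type and at 10.62, 10.24, 10.26, 10.17 and 10.12 in the double mutants (8.49-fold lower; log2 difference -3.09 ± 0.17 SE, adjusted p = 3.11e-06). Adcyap1, which encodes the peptide PACAP, stood at 8.13, 6.87, 5.67 and 8.31 and at 4.60, 4.44, 4.51, 5.27 and 4.51, with 1 of 5 double-mutant arrays above background (log2 difference -2.58 ± 0.48 SE, adjusted p = 0.00868). Its level on the Fshr-CAM arrays, where Lhr is present, was also low at 4.43, 4.82, 4.57 and 4.68, unlike Star or Akr1c18, which stood there at 9.51, 9.72, 9.74 and 7.97 and at 13.69, 13.73, 13.59 and 11.29. The catalytic subunit Prkaca fell 1.36-fold (log2 difference -0.44 ± 0.10 SE, adjusted p = 0.018). Gnas, Prkar1a, Creb1 and the adenylyl cyclases Adcy3, Adcy6, Adcy7 and Adcy9 differed by -0.46 to 0.38 and did not pass.

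Immediate early genes, which respond quickly to hormones and to tissue handling, had 4 members of 15 lower and 0 higher, beside 5.9% of all genes lower, with a median of -0.33. Dusp1, a phosphatase that ends MAP kinase signals, stood at 12.27, 11.08, 12.49 and 11.79 and at 8.77, 9.04, 9.37, 8.97 and 9.20 (7.16-fold lower; log2 difference -2.84 ± 0.25 SE, adjusted p = 0.0001). Zfp36, which speeds the decay of messenger RNA, fell 1.76-fold, and Jun 1.92-fold with a call lost without the array labelled Fshr-CAM/Lhr-/- 4 (adjusted p = 0.075). Another member of the list then passed, so that without that array 4 were again lower and 0 higher. Genes that LH induces at ovulation showed no call, beside 11.3% of all genes called. Of 11 measured members of this list of 20, 0 passed, with differences from -0.73 at Edn2, an endothelin, to 0.49 at Rgs2, a regulator of G proteins. The other members of that list were not measured.

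In the Wnt pathway 3 of 17 members fell and 1 rose, beside 5.9% of all genes lower and 5.45% higher. Without the array labelled Fshr-CAM/Lhr-/- 4, 2 fell and 1 rose. Beside Wnt10b, the receptor Lgr5 stood at 7.08, 9.21, 7.33 and 9.42 and at 6.36, 6.81, 7.14, 5.71 and 5.71 (log2 difference -1.92 ± 0.53 SE, adjusted p = 0.0415), with overlap between the groups and a call lost without the array labelled Fshr-CAM/Lhr-/- 4 (adjusted p = 0.0797), and the antagonist Sfrp2 differed by -0.78 (adjusted p = 0.00949). The receptor Fzd2 rose 2.19-fold (log2 difference 1.13 ± 0.24 SE, adjusted p = 0.0163). Of 21 matrix genes 3 fell and 0 rose, beside 5.9% of all genes lower, with Tgfbi at -0.91, Sparc at -0.70 and the protease Plau at -0.58. Plau lost its call without the array labelled Fshr-CAM/Lhr-/- 4 (adjusted p = 0.0569), leaving 2 that fell.

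**Figure D3:**
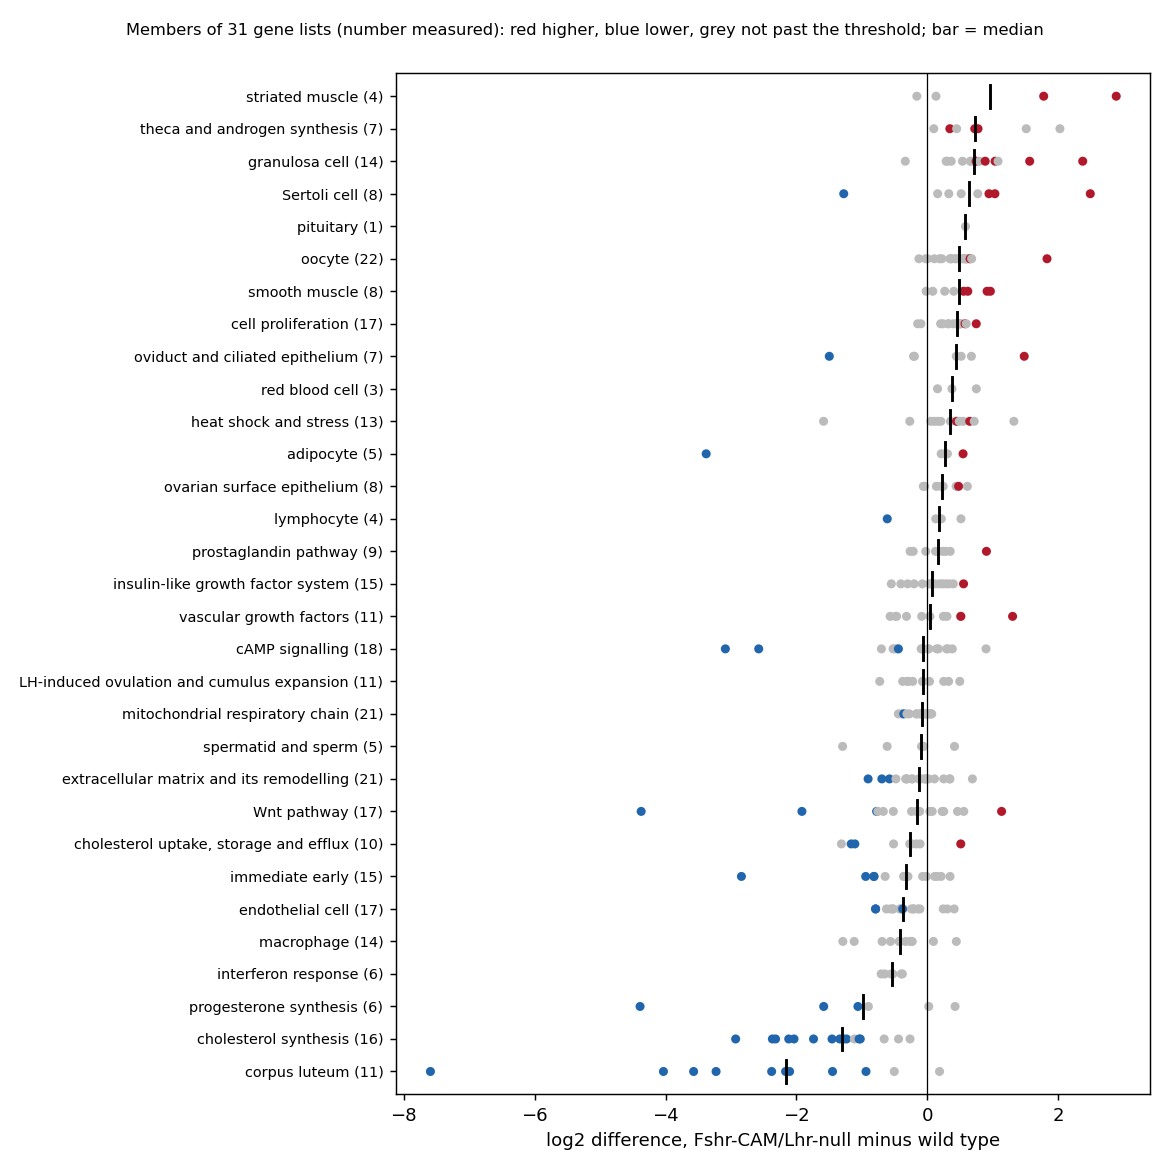
Each point is a measured member of 1 of 31 gene lists, placed by its log2 difference between the double mutant and the wild type (horizontal), with higher genes in red, lower in blue, the rest in grey and a bar at the list's median. Corpus luteum, cholesterol synthesis and progesterone synthesis stand at the bottom with medians of -2.17, -1.31 and -0.98, and striated muscle, theca and granulosa lists stand at the top with 0.95, 0.72 and 0.71.

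Of 14 measured members of the granulosa cell list of 17, 5 rose and 0 fell, with a median of 0.71, beside 5.45% of all genes higher. Fshr, the gene that the allele concerns, is among the 5, and whether its signal comes from the mutant allele was not tested. Without the array labelled Fshr-CAM/Lhr-/- 4, 7 rose. After Fshr, the largest rise was in Inhba, which encodes the subunit shared by activin A and inhibin A, which stood at 11.54, 11.51, 11.81 and 11.91 on wild type arrays 1 to 4 and at 13.68, 13.12, 13.36, 12.73 and 13.38 on double-mutant arrays 1 to 5. The groups do not overlap, and the array labelled Fshr-CAM/Lhr-/- 4 is the lowest double mutant (2.95-fold higher; log2 difference 1.56 ± 0.17 SE, adjusted p = 0.000449). Inha, the alpha subunit that makes inhibin, stood at 12.94, 12.64, 13.14 and 12.84 and at 13.87, 13.61, 13.85, 13.95 and 13.59 (1.84-fold higher; log2 difference 0.88 ± 0.11 SE, adjusted p = 0.00114). Fst, follistatin, which binds and blocks activin, stood at 10.23, 9.46, 10.24 and 9.73 and at 11.23, 10.76, 10.96, 10.99 and 10.81 (2.05-fold higher; log2 difference 1.03 ± 0.17 SE, adjusted p = 0.00444). Amhr2, the receptor of anti-Müllerian hormone, rose 1.68-fold (log2 difference 0.74 ± 0.11 SE, adjusted p = 0.00301), and for these 3 genes too every double mutant lies above every wild type array.

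The other 9 granulosa genes did not pass at the probe used. Amh, the hormone itself, stood at 7.31, 6.70, 8.45 and 7.92 in the wild type and at 7.92, 8.56, 8.60, 8.76 and 8.12 in the double mutants, with overlap (log2 difference 0.80 ± 0.32 SE, adjusted p = 0.137). Hsd17b1, which makes estradiol in granulosa cells, stood at 12.37, 11.74, 12.28 and 12.42 and at 12.68, 12.59, 12.42, 13.48 and 13.11, and wild type 4 and double mutant 3 meet at 12.42 (log2 difference 0.65 ± 0.22 SE, adjusted p = 0.0795). Esr2, estrogen receptor beta, differed by 0.54, Nr5a2, the receptor LRH-1, by 0.36, Foxl2, a granulosa identity factor, by 0.30, Gja1, a gap junction protein, by 0.29 and Kitl, the ligand of Kit, by -0.34, with adjusted p from 0.0544 to 0.431. Grem1, a BMP antagonist of the cumulus, and Bmpr1b, a BMP receptor, passed once the array labelled Fshr-CAM/Lhr-/- 4 was left out (1.42, adjusted p = 0.0313 for Grem1 and 0.80, adjusted p = 0.0289 for Bmpr1b). With all 5 arrays they stood at 1.08 and 0.67, and a second Bmpr1b probe passed there, at 0.74 (adjusted p = 0.0468).

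**Figure D4:**
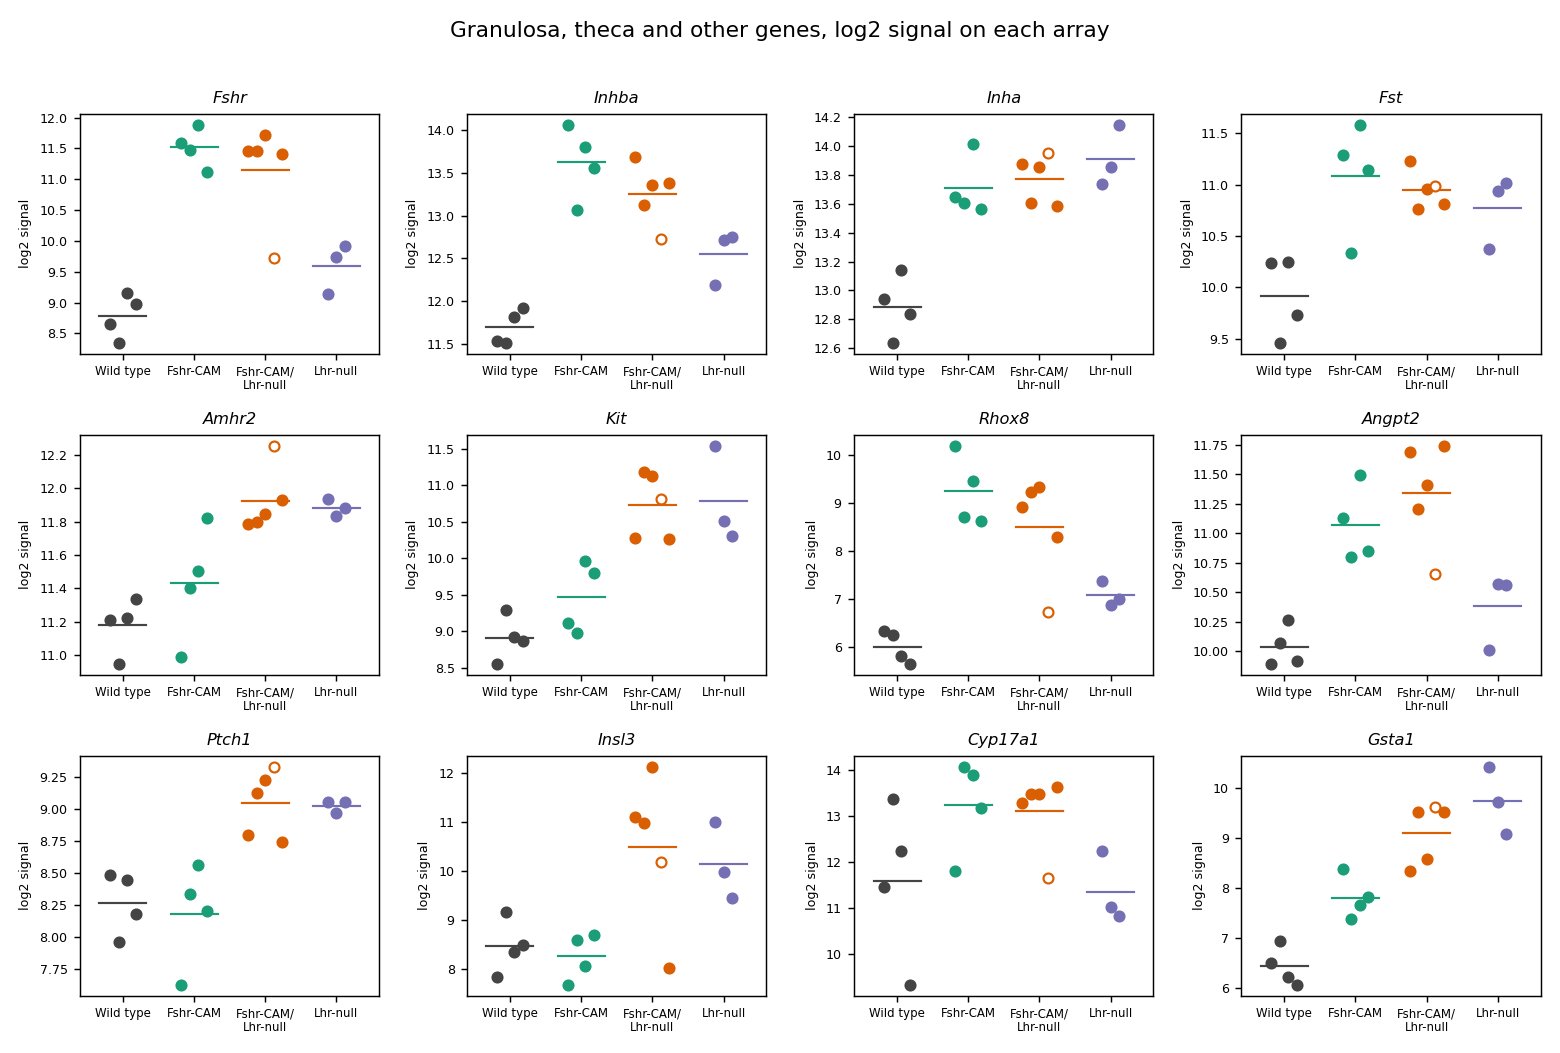
Log2 signals of 12 granulosa, theca and other genes are plotted for each array of 4 genotypes, with a bar at each group mean and an open circle for the array labelled Fshr-CAM/Lhr-/- 4. For Fshr, Rhox8 and Angpt2 the open circle sits below the other double mutants and within or next to the Lhr-null points, and for Inha, Fst, Amhr2 and Ptch1 it sits with its group or above it.

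In the theca list 3 of 7 measured members rose and 0 fell, beside 5.45% of all genes higher, with a median of 0.72. All 3 belong to the hedgehog pathway, through which granulosa cells signal to theca cells. Ptch1, the hedgehog receptor and a target of the pathway, stood at 8.49, 7.96, 8.45 and 8.18 and at 8.80, 9.12, 9.23, 9.33 and 8.74 (1.71-fold higher; log2 difference 0.77 ± 0.16 SE, adjusted p = 0.014). Hhip, which binds hedgehog ligands, rose 1.65-fold (log2 difference 0.72 ± 0.20 SE, adjusted p = 0.0451) and Smo, the signal transducer, 1.27-fold (log2 difference 0.34 ± 0.09 SE, adjusted p = 0.0362). Without the array labelled Fshr-CAM/Lhr-/- 4 only Ptch1 kept its call (adjusted p = 0.0245), with 0.0565 for Hhip and 0.051 for Smo. Further probes gave smaller differences that did not pass with all 5 arrays, 0.28 (adjusted p = 0.292) at a second Ptch1 probe and 0.15 to 0.26 (adjusted p from 0.256 to 0.668) at the other 3 Smo probes.

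The theca genes for hormones were more variable. Cyp17a1, the enzyme of androgen synthesis, stood at 11.44, 13.36, 12.23 and 9.32 on wild type arrays 1 to 4 and at 13.28, 13.48, 13.46, 11.64 and 13.62 on double-mutant arrays 1 to 5. Double mutants 1, 2, 3 and 5 lie within 13.28 to 13.62, the array labelled Fshr-CAM/Lhr-/- 4 lies lower, and wild type 2 reaches their level, so that the difference did not pass (log2 difference 1.51 ± 0.70 SE, adjusted p = 0.191). Insl3, a peptide hormone of theca cells, stood at 7.84, 9.15, 8.34 and 8.49 in the wild type and at 11.10, 10.98, 12.12, 10.18 and 8.03 in the double mutants. Double mutant 5 lies within the wild type range and the other 4 above it (log2 difference 2.02 ± 0.67 SE, adjusted p = 0.0785). Nr2f2, a nuclear receptor of theca and stroma, and Akr1c14, an androgen-metabolising enzyme, differed by 0.45 and 0.10 and did not pass at the probe used. The other 2 Nr2f2 probes passed, at 0.76 (adjusted p = 0.0246) and 0.63 (adjusted p = 0.0436).

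Several of the largest rises were in genes outside these lists. Gsta1 and Gsta2, glutathione transferases that are near-identical copies and may share probes' signal, stood at 8.34, 9.51, 8.57, 9.62 and 9.51 and at 8.20, 9.21, 8.24, 9.32 and 9.40 in the double mutants, against 6.51, 6.94, 6.23 and 6.07 and 6.52, 6.60, 5.83 and 5.96 in the wild type. Both rose, 6.38-fold and 6.26-fold (log2 difference 2.67 ± 0.30 SE, adjusted p = 0.000501 for Gsta1). Fabp3, a fatty acid carrier, stood at 9.06, 10.11, 9.20 and 9.50 and at 12.06, 12.24, 12.69, 11.46 and 11.43 (5.69-fold higher; log2 difference 2.51 ± 0.28 SE, adjusted p = 0.000516). Bpifb5, a member of the BPI fold family, rose 5.41-fold, Gpha2, a glycoprotein hormone alpha subunit, 5.47-fold, Spink4, a protease inhibitor, 4.49-fold and Pdia2, a protein disulfide isomerase, 3.92-fold. Cacna1d, a calcium channel subunit, rose 5.22-fold and Comp, a cartilage matrix protein, 4.33-fold at their brightest probes, while another probe of each gave 0.06 and 0.82. In all of these genes every double mutant lay above every wild type array, as the choice of names required.

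Rhox8, a reproductive homeobox gene, stood at 6.34, 6.26, 5.82 and 5.66 in the wild type and at 8.92, 9.24, 9.33, 6.74 and 8.30 in the double mutants (5.61-fold higher; log2 difference 2.49 ± 0.47 SE, adjusted p = 0.00949), and the array labelled Fshr-CAM/Lhr-/- 4 is the lowest of its group. Rhox8 stands on the Sertoli cell list, of which 3 of 8 measured members rose and 1 fell, beside 5.45% of all genes higher and 5.9% lower. Beside Rhox8, Dhh, a hedgehog ligand, rose by 0.94 (adjusted p = 0.00887) and Aard by 1.03 (adjusted p = 0.0342). The gene that fell, Cst9, was not above background on any double-mutant array and entered the test through the wild type alone. Without the array labelled Fshr-CAM/Lhr-/- 4, 5 rose and 1 fell. The Sertoli cell factor Sox9 differed by 0.33 and did not pass (adjusted p = 0.347). Angpt2, which loosens blood vessel walls, stood at 9.89, 10.07, 10.27 and 9.92 and at 11.69, 11.20, 11.41, 10.65 and 11.74 (2.46-fold higher; log2 difference 1.30 ± 0.20 SE, adjusted p = 0.0032). Hpgd, which breaks down prostaglandins, rose 1.87-fold, Igfbp5, an IGF-binding protein, 1.47-fold and Ddit4, a stress gene that restrains growth signalling, 1.57-fold.

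Kit, the receptor of Kitl on oocytes and theca cells, stood at 8.55, 9.29, 8.91 and 8.87 in the wild type and at 10.28, 11.18, 11.13, 10.81 and 10.26 in the double mutants (3.55-fold higher; log2 difference 1.83 ± 0.22 SE, adjusted p = 0.0008). Kit and Bcl2l10, an oocyte relative of Bcl2, were the 2 of 22 measured oocyte genes that rose, beside 5.45% of all genes higher, and 0 fell, with a list median of 0.49. Bcl2l10 lost its call without the array labelled Fshr-CAM/Lhr-/- 4 (adjusted p = 0.0599) and Kit kept it. Zp3, Gdf9 and Bmp15, which mark growing oocytes, differed by 0.59, 0.58 and 0.68 and did not pass (adjusted p = 0.189, 0.141 and 0.0751). The mean of the oocyte list was 8.02 to 8.67 on the wild type arrays and 8.41 to 9.26 on the double-mutant arrays, which overlap, and was highest on the array labelled Fshr-CAM/Lhr-/- 4. Of 17 genes of cell proliferation 2 rose, Mcm2 and Mcm5, which help license DNA replication, beside 5.45% of all genes higher, and both calls were lost without that array (adjusted p = 0.0591 and 0.0574), while Mcm4 of the same family then passed (0.31, adjusted p = 0.0465). That list's mean was 8.11 to 8.72 in the wild type and 8.60 to 9.40 in the double mutants, and the array labelled Fshr-CAM/Lhr-/- 4 was again the highest.

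Of 8 measured smooth muscle genes 4 rose and 0 fell, beside 5.45% of all genes higher: Myocd, the factor that switches on the smooth muscle programme, 1.95-fold, Myh11, smooth muscle myosin, 1.88-fold, and the actins Actg2 and Acta2 by 0.62 and 0.55 on the log2 scale. Myh6, the alpha myosin heavy chain of heart muscle, was not above background on any wild type array (4.36, 4.42, 4.38 and 4.48) and stood at 5.93, 6.85, 7.75, 8.76 and 7.17 in the double mutants. It rose at least 5.08-fold (adjusted p = 0.00332, as a gene that entered the test through the double mutants alone), with the array labelled Fshr-CAM/Lhr-/- 4 the highest. Tnni2, a troponin of fast muscle, stood at 5.73, 6.03, 5.97 and 5.83 and at 7.05, 7.70, 7.56, 8.19 and 7.83 (3.43-fold higher; log2 difference 1.78 ± 0.21 SE, adjusted p = 0.000621). Of the 12 striated muscle markers, 2 to 3 were detected per wild type array and 3 to 4 per double-mutant array. Only 4 passed the filter, and the other 2 of them, Mb and Mylpf, differed by 0.13 and -0.16 and did not pass.

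Counts for markers of further cell types are given beside 5.45% of all genes higher and 5.9% lower. Of 17 endothelial genes 3 fell, Pecam1, Eng and Cdh5, by 0.79, 0.79 and 0.38 on the log2 scale, and 0 rose, with a median of -0.38. Cdh5 lost its call without the array labelled Fshr-CAM/Lhr-/- 4 (adjusted p = 0.0685), leaving 2 that fell. The mean of that list was 8.71 to 9.10 on the wild type arrays and 8.40 to 8.93 on the double-mutant arrays, and its part in the falls of luteal and steroid genes was not tested. None of 14 macrophage genes passed, although the list's mean on double mutants 4 and 5 was 7.36 and 7.38, against 8.38 to 8.56 on double mutants 1 to 3. The surface epithelium list had 1 of 8 higher, Krt8, a keratin. Of 4 measured lymphocyte genes Cd79b, part of the B cell receptor, fell with a call lost without the array labelled Fshr-CAM/Lhr-/- 4 (adjusted p = 0.0517), and of 21 genes of the mitochondrial respiratory chain Ndufa4 fell by 0.36. For oviduct and cilia 1 of 7 rose, Tppp3, and 1 fell, Rsph1, a radial spoke protein of cilia, which stood at 7.67, 8.52, 8.12 and 7.88 and at 6.17, 6.12, 7.05, 7.42 and 6.00 (log2 difference -1.50 ± 0.31 SE, adjusted p = 0.0148).

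The remaining lists held few calls, and their counts are given beside 5.45% of all genes higher and 5.9% lower. The stress list had 2 of 13 higher, Ddit4 and Gadd45g, a growth arrest gene, the vascular growth factor list 2 of 11, Angpt2 and Ephb4, an ephrin receptor, the prostaglandin list 1 of 9, Hpgd, and the insulin-like growth factor list 1 of 15, Igfbp5, and 0 fell in any of these 4. None of 6 interferon genes, 3 red blood cell genes, 5 sperm genes or the 1 pituitary gene measured passed. When the array labelled Fshr-CAM/Lhr-/- 4 was left out, the stress list had 3 higher and 1 lower and the prostaglandin list 2 higher. The cyclic AMP list then had 1 higher and 3 lower, and the pituitary gene, Gnrhr, passed. The shares over all genes were then 5.35% higher and 5.42% lower. Gnrhr was not above background on any wild type array and entered the test through the double mutants alone, so its call is a description. With every array its rise was at least 0.27 on the log2 scale.

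Some of the calls given above rested on single arrays. Of 83 named genes called, 17 lost the call when 1 of the 9 arrays was left out. The call of Hhip was lost without any 1 of the 9 arrays, and those of Smo, Plau, Cdh5 and Mcm5 without any 1 of 8. Those of Bcl2l10, Cd79b, Ephb4, Jun and Mcm2 were lost without any 1 of 7, those of Aard, Actg2, Apoe and Lgr5 without any 1 of 6 and that of Pecam1 without any 1 of 5. That of Tspo was lost without wild type 2. Pcsk5 lost its call without any 1 of the 4 wild type arrays because its brightest probe then missed the detection filter and a dimmer probe stood in. Ptgfr, Onecut2, Wnt10b, Sfrp4 and Cst9 were then not measured. Of the 83, 73 kept the call without the array labelled Fshr-CAM/Lhr-/- 4 and 10 lost it, while 3 others, Bmpr1b, Grem1 and Nr5a1, gained one.

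To see what the active receptor moved at all in the absence of Lhr, the double mutant was set against Lhr-null arrays 2 to 4, in a fit of 16 arrays over the same 11473 genes. There were 43 genes that differed (0.375%), 6 higher (0.0523%) and 37 lower (0.322%), while 1488 had an unadjusted p under 0.05. The 6 higher genes were Tmem25, C1qtnf1, Nek6, Wdcp, Fbrs and Foxk1. Of these, Tmem25 differed by 1.07 (adjusted p = 0.0353) and was the only one also called above the wild type (0.89, adjusted p = 0.0158). The lower genes include Tekt1, Dnali1 and Rsph1 of cilia and Prm1 and Tnp1 of sperm, named here, like the 6 higher ones, after their values were seen. The Lhr-null arrays carried more of such RNA: the mean of the oviduct and cilia markers was 7.36 to 9.12 there, against 5.24 to 6.10 in the double mutants and 5.33 to 5.51 in the wild type. Lhr-null 2 stood apart for the sperm markers, with 11 of 11 detected and a mean of 9.20. That mean was 5.59 and 5.90 on Lhr-null 3 and 4, 4.86 to 5.21 in the double mutants and 4.91 to 5.48 in the wild type. Lhr-null 2 was kept, and without it 5 genes were higher and 43 lower. Without the array labelled Fshr-CAM/Lhr-/- 4, 255 genes differed (2.22%), 143 higher (1.25%) and 112 lower (0.976%), with 2040 at an unadjusted p under 0.05. The higher count was 1, 3 and 2 without double mutants 1, 2 and 3, and 13 and 1 without Lhr-null 3 and 4, and the lower count was 78 and 23 without Lhr-null 3 and 4.

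For the genes that stayed below the wild type, this comparison gave small or uncertain differences. Star stood at 6.03, 5.64 and 4.67 on Lhr-null arrays 2 to 4, and the double mutant differed from them by 0.47 (95% interval -0.49 to 1.44, adjusted p = 0.71). Akr1c18 stood at 5.62, 7.15 and 5.03 and differed by -0.84 (95% interval -2.73 to 1.04, adjusted p = 0.744). Dhcr7 stood at 6.51, 6.62 and 6.86 and differed by 0.24 (95% interval -0.48 to 0.97, adjusted p = 0.821). Abcb1b, at 6.05, 6.82 and 6.16, differed by 0.12 (95% interval -0.78 to 1.03, adjusted p = 0.942), and Hsd17b7, at 10.72, 11.13 and 10.21, by -0.15 (95% interval -1.06 to 0.76, adjusted p = 0.925). In none of these 5 genes did the difference pass, and all of the intervals except that of Dhcr7 still include changes of 2-fold. Over the list of 11 luteal genes, 0 differed in either direction and the median was -0.03. Over 16 cholesterol genes 0 differed and the median was -0.23. Only 0.375% of all genes differed in this comparison, so a count of 0 says little about lists of this size.

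Cyp11a1 and Scarb1 lay between the other genotypes. Cyp11a1 stood at 10.03, 9.80 and 8.90 on the Lhr-null arrays, below every double mutant except the array labelled Fshr-CAM/Lhr-/- 4, and differed by 1.11 (95% interval 0.45 to 1.76, adjusted p = 0.151). Without that array the difference was 1.38, adjusted p = 0.00683, so that Cyp11a1 was then above the Lhr-null level and below the wild type. Scarb1 stood at 5.94, 6.03 and 6.17 and showed the same order, but its difference did not pass with all arrays (0.96 (95% interval 0.15 to 1.78, adjusted p = 0.305)) or without that one (1.24, adjusted p = 0.0683).

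Among the genes above the wild type, 2 patterns appear side by side. Inha stood at 13.73, 13.85 and 14.14 on the Lhr-null arrays, Amhr2 at 11.94, 11.83 and 11.88, Kit at 11.54, 10.51 and 10.31 and Gsta1 at 10.42, 9.72 and 9.07, each inside or next to the range of the double mutants. Lhr-null against wild type, which shares the wild type arrays with the main comparison, had 624 genes higher (5.44%) and 842 lower (7.34%), or 12.8% in all. In it the differences were 1.02 for Inha, 0.71 for Amhr2, 1.88 for Kit and 3.30 for Gsta1. Myh6 stood higher still on the Lhr-null arrays, at 9.61, 8.60 and 8.15. The other pattern held for Fshr, Rhox8, Angpt2 and Fzd2, and for Grem1, which was itself above the wild type only without the array labelled Fshr-CAM/Lhr-/- 4. Their double-mutant level passed that of the Lhr-null arrays only without the array labelled Fshr-CAM/Lhr-/- 4. The differences were then 1.92, adjusted p = 0.000574 for Fshr, 1.85, adjusted p = 0.0115 for Rhox8, 1.13, adjusted p = 0.00606 for Angpt2, 1.46, adjusted p = 0.0139 for Fzd2 and 1.55, adjusted p = 0.0293 for Grem1. That array was set apart for its low Fshr, the gene that the allele concerns, so the p for Fshr is only a description. Inhba, at 12.19, 12.72 and 12.74 on the Lhr-null arrays, missed the threshold with all arrays (0.71 (95% interval 0.24 to 1.18, adjusted p = 0.2)) and without that one (0.84, adjusted p = 0.0521).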

How the data were processed

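Biotin-labelled cRNA from 17 ovary samples was read on Illumina MouseWG-6 v2.0 arrays. For each of 45281 probes and each array, the deposited non-normalised table gives, per the file headers, a mean signal intensity, its standard error over beads, a detection p-value and the number of beads read. The sources used here give no slide or scan date, so batches were not tested. The submitters' processing notes name GenomeStudio 1.7.0 as the authors' tool. The deposited quantile-normalised intensity table was used as an alternative only.

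Here the signals and detection p-values of 16 arrays (without Lhr-null replicate 1) were corrected and normalised by the neqc function (limma 3.58.1, R 4.3.3), with an offset of 16, then put on the log2 scale. Probes with 1 gene symbol and a detection p under 0.05 on at least 4 of the 9 compared arrays were kept, and each gene was represented by its brightest probe (11473 genes). Of 45281 probes, 34885 had 1 symbol, 18 several and 10378 none. The 9 arrays were fitted with limma (lmFit, eBayes with an intensity trend), with Benjamini-Hochberg adjustment over all genes and a threshold of 0.05. The fit was repeated without the array labelled Fshr-CAM/Lhr-/- 4. Comparisons with Lhr-null arrays come from 1 fit of 16 arrays and share arrays with the main comparison, so no overlap between them is given. On simulated data of 11473 genes, the 9-array fit recovered 70 of 100 genes given a log2 change of 1 and 96 of 100 given a change of 2, with 10 false calls. The simulated noise was independent between genes and arrays, and only 200 genes were changed, so these rates need not hold for the real arrays.

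The text names Fshr, the 12 largest rises and 12 largest falls whose groups do not overlap, the measured members of the progesterone, luteal, granulosa and theca lists, and up to 3 members of every other list with the largest change past the threshold (101 genes). Further members complete a list, and the 6 genes higher than in Lhr-null were named outside this rule. The 31 gene lists were written from general knowledge, and members, lists and rules were chosen with earlier results of these data known. Whether replicate numbers pair the samples was not settled. Same-numbered wild type and double-mutant arrays deviated together with r of -0.06 to 0.09, and differently numbered arrays were not set beside them. Of 470 list entries 426 were in the array annotation and 344 were measured. Promoter sequences are from RefSeq on GRCm38.p6, and gene names were matched to the same annotation (34807 probes). Alternatives and their effects are given at the end. Figures were drawn with matplotlib 3.10.9.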

Additional observations from a re-analysis of the deposited data

Results flagged for a closer look

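Within groups of 4 or 5 arrays, 21 of 264 sets of values (7.95%) had 1 array far from the others by Dixon's test, where chance gives about 1 in 20. Of these, 12 were at the array labelled Fshr-CAM/Lhr-/- 4.

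On that array the log2 signal was lower than on the other 4 double mutants for Fshr (9.729 against 11.41 to 11.72), Star (4.764 against 6.009 to 6.388), Cyp11a1 (9.601 against 10.77 to 11.24), Scarb1 (5.921 against 7.099 to 7.437), Nr5a1 (6.644 against 7.538 to 7.67), Cyp17a1 (11.64 against 13.28 to 13.62) and Pcsk5 (4.417 against 4.77 to 4.856). The mean of the progesterone synthesis list was lower there as well, at 8.052 against 8.661 to 8.797. It was higher for Akr1c18 (6.32 against 4.538 to 5.026), Pdia2 (8.578 against 7.313 to 7.662), Hhip (7.146 against 6.351 to 6.567) and Adcyap1 (5.27 against 4.443 to 4.603).

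Other double mutants stood apart in single genes. Double mutant 1 was high for Sgk1 (10.62 against 10.12 to 10.26) and for Pik3c2g (4.687 against 4.375 to 4.443), double mutant 3 was low for Wnt10b (4.305 against 4.497 to 4.548), and double mutant 5 was low for Wnt4 (7.953 against 8.366 to 8.498) and Stard3 (8.304 against 8.661 to 8.799). Pik3c2g, Wnt10b and Pcsk5 were not above background on any double-mutant array.

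In the wild type, array 3 was high for Foxl2 (6.075 against 5.114 to 5.271). Array 4 was high for Akr1c14 (8.647 against 6.898 to 7.111), low for Stard4 (8.529 against 9.579 to 9.696) and low in the mean of the interferon list (7.613 against 7.857 to 7.903).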

How the results depend on the processing

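Of the 83 named genes called, 32 kept the call under each of the up to 21 alternatives that measured them, 51 lost it under at least 1 and 0 changed direction, while 8 that were not called passed under at least 1. Star, Akr1c18, Cyp11a1, Dhcr7, Abcb1b, Sgk1 and Kit kept theirs throughout, and the calls of Fshr, Inhba, Inha, Fst and Amhr2 were lost only when all 17 arrays were normalised and fitted. Against the wild type, counts of 625 higher and 677 lower became 103 and 320 with all 17 arrays, and 256 and 386 with the replicate number as a block. The higher count was 137 with median-centred signals and 383 without a detection filter. Leaving out 1 array gave 267 to 609 higher and 396 to 617 lower. Without the array labelled Fshr-CAM/Lhr-/- 4, 609 and 617 became 89 and 254 with all remaining arrays of every genotype, and 210 and 349 with the block. The higher count was then 190 with median-centred signals, and leaving out 1 more array gave 220 to 550 higher and 325 to 615 lower.

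Against Lhr-null, 6 higher and 37 lower genes became 3 and 24 with the replicate block, and 12 were higher with all 17 arrays. Leaving out 1 array gave 1 to 143 higher and 23 to 112 lower. For Lhr-null against the wild type, 624 and 842 became 262 and 541 with all 17 arrays, and 307 to 539 and 522 to 851 with 1 array left out. The cause of these changes was not tested. The alternatives for the comparison without the array labelled Fshr-CAM/Lhr-/- 4 were chosen after the data were seen. Whether the replicate numbers pair samples was not settled. Signal over background limits the genes at the detection limit, whose folds are bounds.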
